A study of Meloidogyne incognita with 75 samples.

Results

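The 120 transcripts described here were chosen by their levels as shared by pre_J2 and male libraries of the southern root-knot nematode, Meloidogyne incognita. Among 43359 genes with a single transcript identifier, out of 44267 genes and 45378 transcripts in the table, 6325 had a stage mean of at least 10 CPM (counts scaled to the library total) in both pre_J2 and male. A score was taken as the lower of both stage means of log2(CPM + 1) minus the highest such mean among the 6 other stages. It was positive for 517 genes, and the 120 members are those with the highest score. Members were thus selected on exactly the levels that set pre_J2 and male against the other stages, so these levels are given as a description without a test. Of the 120 members, 81 are also kept in the deposited filtered table, where each transcript was counted in at least 56 libraries.

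Each library came from 1 whole animal, picked and staged under a microscope and amplified by a low-input protocol that copies messenger RNA. The 75 libraries fall into 8 stages by their titles, namely pre_J2 (n = 5), par_J2 (n = 12), J3 (n = 14), J4 (n = 8), J4_moulting (n = 14), J4_female (n = 8), female (n = 7) and male (n = 7). The pre_J2 animals were obtained from eggs kept in vitro, and no genetic change or treatment is named for any stage, while the labels name no age, strain or host plant. The male libraries carry a tag that reads J4_male, and whether these animals had finished the last moult is not stated. Whether the animals of a stage came from separate cultures is not stated either, so the spread reported is that between the animals sequenced. Because a library is a whole animal, more cells of a type and more RNA per cell cannot be told apart.

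Root-knot nematodes hatch as slender, mobile juveniles that do not feed until they have entered a root and made the plant form giant feeding cells. The juveniles inside the root swell, stop moving and moult several times, and females stay swollen and sedentary in the root. Males take on a slender worm shape again at the last moult and leave the root without feeding. The files pair no identifier with a gene name, product, sequence or position, so members are given by identifier, and the identity of the stages was not checked against marker genes here.

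Some libraries stood apart in these members. The members held a far larger share of the counts in male replicates 2, 3 and 4 than in the other male libraries, pre_J2 replicate 1 stood above the other pre_J2 libraries, and J4_female replicate 8 stood above the other J4_female libraries. Several results that rest on these libraries are given with and without them, and the other stage means and spreads include them. The totals of the libraries lay between 3265447 and 40174566 counts (median 15503915), and 3 counts correspond to between 0.0747 and 0.919 CPM in a library. The libraries carry no molecular identifiers, so this limit covers counting error only.

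The share of all counts that fell in the members was 6.84% in pre_J2 replicate 1, 2.87% in replicate 2, 2.06% in replicate 3, 1.95% in replicate 4 and 2.71% in replicate 5, a mean of 3.29% ± 2.02 (SD, n = 5). In male replicates 1 to 7 it was 1.06%, 19.9%, 13.9%, 15.7%, 1.58%, 2.19% and 1.84%, a mean of 8.04% ± 8.16 (SD, n = 7). The SD in male exceeded the mean, because replicates 2, 3 and 4 were high and the other male libraries were within the range of pre_J2 or below it. A pair of members, Mi_25779.1 and Mi_25788.1, made up most of the share in these 3 libraries. Without this pair, the other 118 members held 2.27% ± 0.955 of the counts in male (SD, n = 7, from 1.03% to 3.78%) and 2.79% ± 1.90 in pre_J2 (SD, n = 5).

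In the other stages the members held far less. Their share was 0.255% ± 0.0761 in par_J2 (SD, n = 12), 0.261% ± 0.104 in J3 (SD, n = 14), 0.292% ± 0.178 in J4 (SD, n = 8) and 0.0912% ± 0.0350 in female (SD, n = 7). It was 0.641% ± 0.510 in J4_moulting (SD, n = 14), where replicates 7 and 10 reached 1.62% and 2.00%. In J4_female it was 0.520% ± 0.642 (SD, n = 8), and 0.311% ± 0.265 without replicate 8, which held 1.99%. Adult females held the lowest mean share of the 8 stages, and J4_moulting the highest of the 6 other stages.

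**Figure D1:**
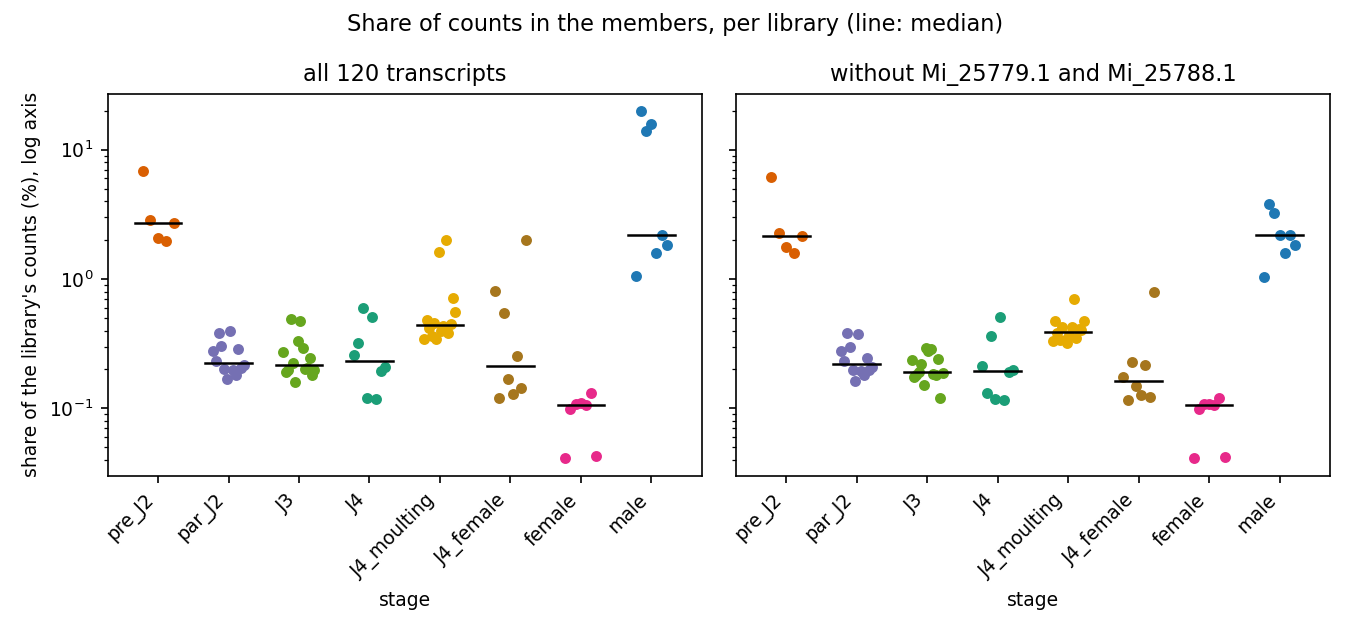
Share of each library's counts, in percent on a log axis, that fell in the 120 members (left) and in the members without Mi_25779.1 and Mi_25788.1 (right), with 1 point per library and a line at the stage median. Male replicates 2, 3 and 4, from 13.9% to 19.9%, stand above the other male libraries on the left, and the male libraries run from 1.03% to 3.78% on the right.

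The median member had a mean of 60.3 CPM in pre_J2 and 74.7 CPM in male. In the other stages the median member had a mean of 4.09 CPM in par_J2, 3.39 in J3, 5.50 in J4, 7.26 in J4_moulting, 8.05 in J4_female and 1.53 in female. Without J4_female replicate 8 the value for J4_female was 4.44 CPM, below that of J4_moulting. CPM is not scaled by transcript length, so these levels are compared between stages and not between transcripts. The ratio of the lower of both stage means to the highest other stage mean lay between 0.447 and 36.1 (median 3.08), and it was under 1 for 5 members, because the score used means of log values and not of CPM. In single libraries, 92 to 112 members reached 10 CPM in pre_J2 and 84 to 105 did in male, compared with 25 to 42 in par_J2 and 10 to 30 in female. J4_female replicate 8 again stood apart, with 82 members at 10 CPM or more and a count for all 120, where the next J4_female library had 49 at 10 CPM or more.

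The stage that came closest to pre_J2 and male, by the mean of log values, was J4_moulting for 61 members, J4 for 25, J4_female for 19, par_J2 for 10, J3 for 3 and female for 2. Without J4_female replicate 8 it was J4_female for only 5 members, J4 for 36 and J4_moulting for 63. Few members were silent elsewhere. Only Mi_39208.1 and Mi_04466.1 had a mean under 1 CPM in all 6 other stages, while 67 had 10 CPM or more and 18 had 100 CPM or more in at least 1 of them. A count was seen in a median of 53.5 of the 63 libraries of the other stages, and 22 members had a count in all 63. Among the members counted in the fewest of these libraries, Mi_19642.1 had no count in any par_J2 library, Mi_17864.1 none in female and Mi_08543.1 none in J3. Set against a floor of 3 counts over the 12 par_J2 libraries, Mi_19642.1 was at least 2357-fold higher in pre_J2. In male it had 147, 137 and 16.1 CPM in replicates 2, 3 and 4, 0.651 CPM in replicate 1 and no count in replicates 5, 6 and 7, so no fold is given for male, and its score without replicates 2, 3 and 4 was -0.49.

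**Figure D2:**
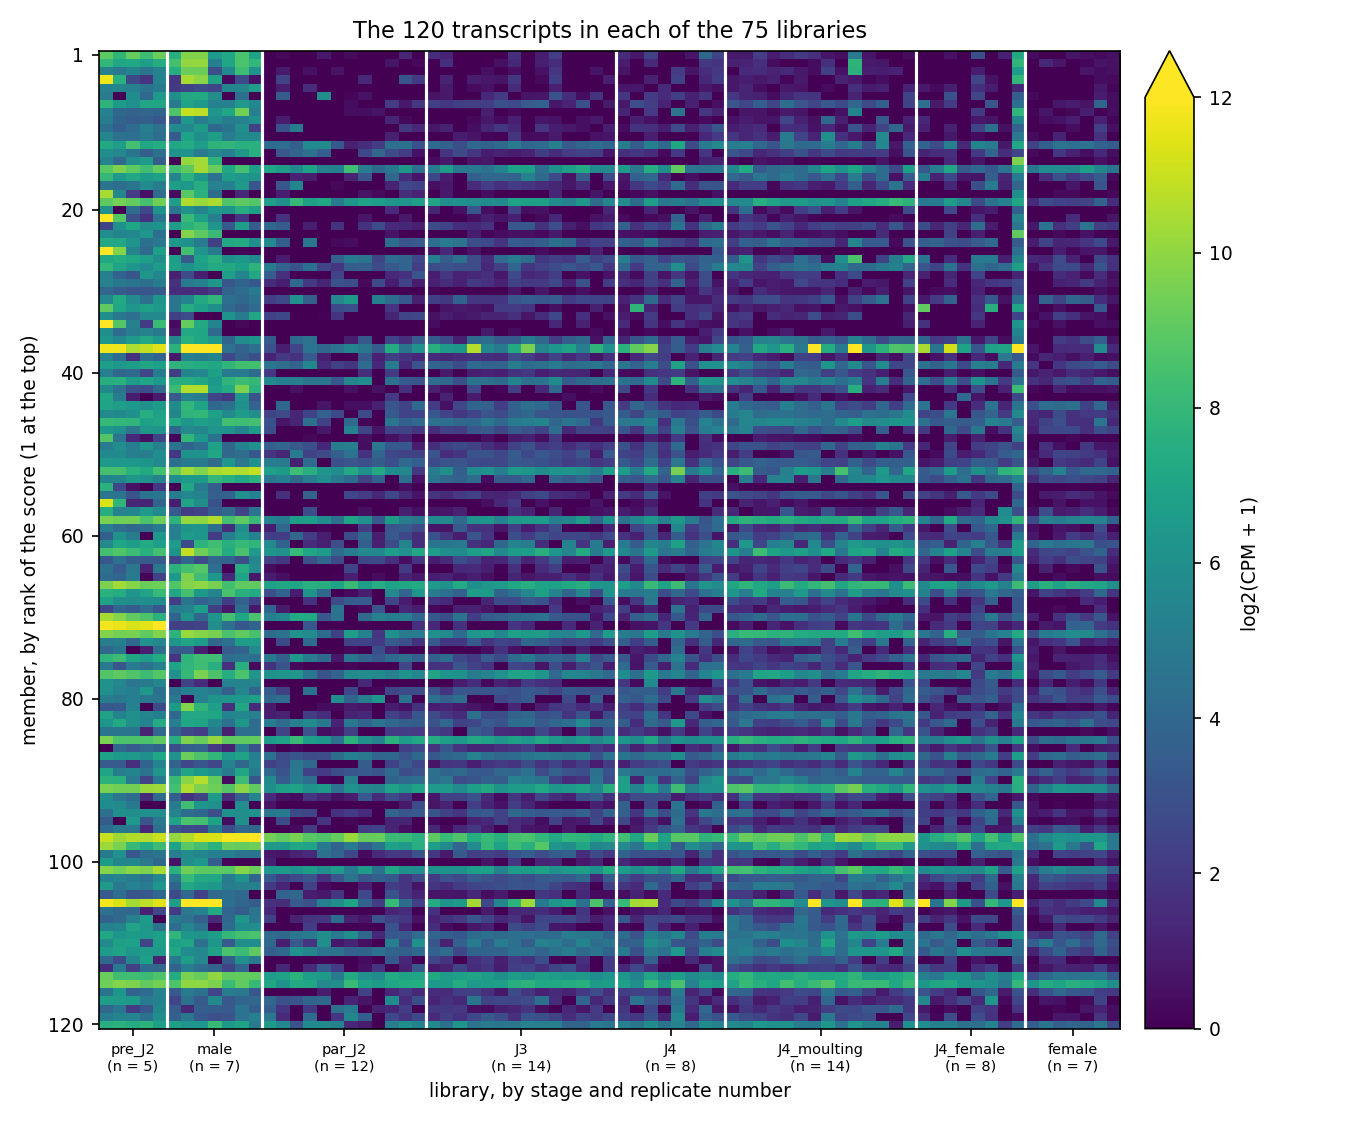
log2(CPM + 1) of the 120 members (rows, by rank of the score) in the 75 libraries (columns, by stage and replicate number), with colours clipped at 12. The 5 pre_J2 and 7 male libraries on the left are bright in most rows, and J4_female replicate 8 is the bright column within its stage.

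The highest scores belonged to Mi_05737.1 and Mi_26448.1, at 6.55 and 6.15, with 36 members at 2 or more and a median of 1.72. For Mi_05737.1 the CPM in pre_J2 replicates 1 to 5 was 502, 232, 573, 312 and 610, and in male replicates 1 to 7 it was 189, 852, 843, 90.4, 143, 371 and 124. The median over the 63 other libraries was 0.336 CPM, and the highest was 154 CPM in J4_female replicate 8, above the values in male replicates 4, 5 and 7. For Mi_26448.1 the CPM in pre_J2 replicates 1 to 5 was 246, 137, 145, 102 and 174, and in male replicates 1 to 7 it was 353, 1048, 1109, 35.2, 130, 393 and 243. Over most of the other libraries Mi_26448.1 was at 0, but J4_female replicate 8 had 229 CPM and J4_moulting replicate 10 had 223 CPM. Both transcripts were therefore high in all 12 pre_J2 and male libraries and near 0 elsewhere, apart from single animals.

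Mi_39208.1 and Mi_38519.1 were the 2 members for which all 12 pre_J2 and male libraries exceeded every one of the 63 other libraries. Mi_39208.1 stood at 36.0, 44.1, 36.8, 22.6 and 30.0 CPM in pre_J2 replicates 1 to 5 and at 3.07, 4.37, 5.73, 4.64, 44.6, 43.5 and 97.6 CPM in male replicates 1 to 7. Its highest value elsewhere was 2.10 CPM in J4_female replicate 5, and within male it was high in replicates 5, 6 and 7 and low in the others. Mi_38519.1 ran from 65.1 to 222 CPM in pre_J2, with a median of 132, and from 30.8 to 120 CPM in male, with a median of 47.6. Its highest value elsewhere was 20.4 CPM in J4_female replicate 1.

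Under the milder condition that all 12 libraries exceed the highest mean among the other stages, 32 members qualified. Singly, all 5 pre_J2 libraries exceeded that mean for 77 members and all 7 male libraries did so for 37. For 17 members only 3 of the 7 male libraries exceeded it. The spread between animals was accordingly wider in male: the median coefficient of variation was 47.8% in pre_J2 and 80.5% in male, against 59.4% and 67.0% over all 6325 genes at 10 CPM in both stages.

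The members with steady levels included Mi_43386.1 and Mi_22786.1, which the rule for naming took for their high levels in both stages. Mi_43386.1 had 2067, 1243, 1549, 1497 and 2131 CPM in pre_J2 replicates 1 to 5, and 1111, 1589, 2451, 2509, 3710, 3513 and 4680 CPM in male replicates 1 to 7. It was present in every library, with a median of 320 CPM over the 63 others and 1195 CPM at most, so its shared high level was one of degree. Mi_22786.1 ran from 696 to 1193 CPM in pre_J2 and from 342 to 1516 CPM in male, with a median of 87.2 CPM elsewhere. Mi_01759.1 and Mi_03426.1, also counted in all 63 other libraries, averaged 118.7 ± 75.0 and 182 ± 89.9 CPM in pre_J2 (SD, n = 5) and 131 ± 47.6 and 182 ± 46.4 CPM in male (SD, n = 7). Both had the wider spread in pre_J2 and were less steady there than in male.

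Other members owed their male mean to 3 libraries. Mi_25779.1 had 3397, 3475, 1456, 1885 and 2721 CPM in pre_J2 replicates 1 to 5. In male replicates 1 to 7 it had 200, 97776, 54826, 76545, 21.5, 13.3 and 20.5 CPM. The male libraries thus fell far above the pre_J2 range in replicates 2, 3 and 4 and far below it in the rest. Mi_25788.1 followed the same order of libraries, with 63967, 51992 and 58909 CPM in male replicates 2, 3 and 4 and 10.5 to 105 CPM in the other male libraries, beside 1317 to 3499 CPM in pre_J2. Both were also high in several animals of other stages. The highest were 6269 CPM for Mi_25779.1 in J4_female replicate 8 and 8036 CPM for Mi_25788.1 in J4_moulting replicate 10. Together they held 0.277% to 0.690% of the counts in pre_J2. Their share was 1.30%, 1.30% and 0.316% in J4_moulting replicates 7, 10 and 13. In J4_female replicates 1, 3 and 8 it was 0.631%, 0.323% and 1.19%, and in J3 replicate 4 it was 0.296%. No other library of the 6 other stages exceeded 0.233%. Their male means of 32772 ± 42637 and 25003 ± 31330 CPM (SD, n = 7) have an SD above the mean and describe no single library.

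Mi_27800.1 and Mi_12990.1 showed this division in its sharpest form. Mi_27800.1 had 872, 514 and 291 CPM in male replicates 2, 3 and 4 and no count in the other 4 male libraries, beside 20.02 to 79.3 CPM in pre_J2. Mi_12990.1, picked out after its values were seen, had 1097, 1287 and 221 CPM in the same male libraries and no count in the other 4. Outside pre_J2 and male, both reached their highest level in J4_female replicate 8, at 529 and 799 CPM, and no other library of the 6 stages exceeded 4.02 CPM for Mi_27800.1.

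To see how often the members divided the male animals in this way, the 3 male libraries with the highest values were listed for each gene. For 44 of the 120 members (36.7%) they were replicates 2, 3 and 4, compared with 188 of all 6325 genes at 10 CPM in both stages (2.97%). Replicates 2, 3 and 6 were the highest for 21 members (17.5%, compared with 2.15% of all genes), among them Mi_05737.1 and Mi_26448.1. Replicates 5, 6 and 7, the highest for 20.6% of all genes, were the highest for 18 members (15.0%). Of the 35 possible sets of 3 male libraries, 22 occurred among the members. These shares are descriptions, since the male levels entered the choice of members.

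In pre_J2, 8 members were more than 5-fold higher in replicate 1 than in any other pre_J2 library. These are Mi_08543.1, Mi_08546.1, Mi_08561.1, Mi_19014.1, Mi_19047.1, Mi_30646.1, Mi_30655.1 and Mi_30678.1, a set formed after the values were seen, and all 8 had male replicates 2, 3 and 4 as their highest male libraries. Their summed level in pre_J2 replicates 1 to 5 was 37548, 2271, 97.2, 27.1 and 486 CPM. In male it was 3542, 1677 and 284 CPM in replicates 2, 3 and 4 and between 0.502 and 9.91 CPM in the other 4. J4_female replicate 8 had 499 CPM, where the median of the J4_female libraries was 0.724 CPM. No library of par_J2, J3, J4, J4_moulting or female exceeded 22.4 CPM. These 8 members were near absent from several of the animals of the very stages for which they were chosen: Mi_30655.1, for example, had 3274 CPM in pre_J2 replicate 1 but 2.64 CPM in replicate 4, and 1368 CPM in male replicate 2 but 0.316 CPM in replicate 5.

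**Figure D3:**
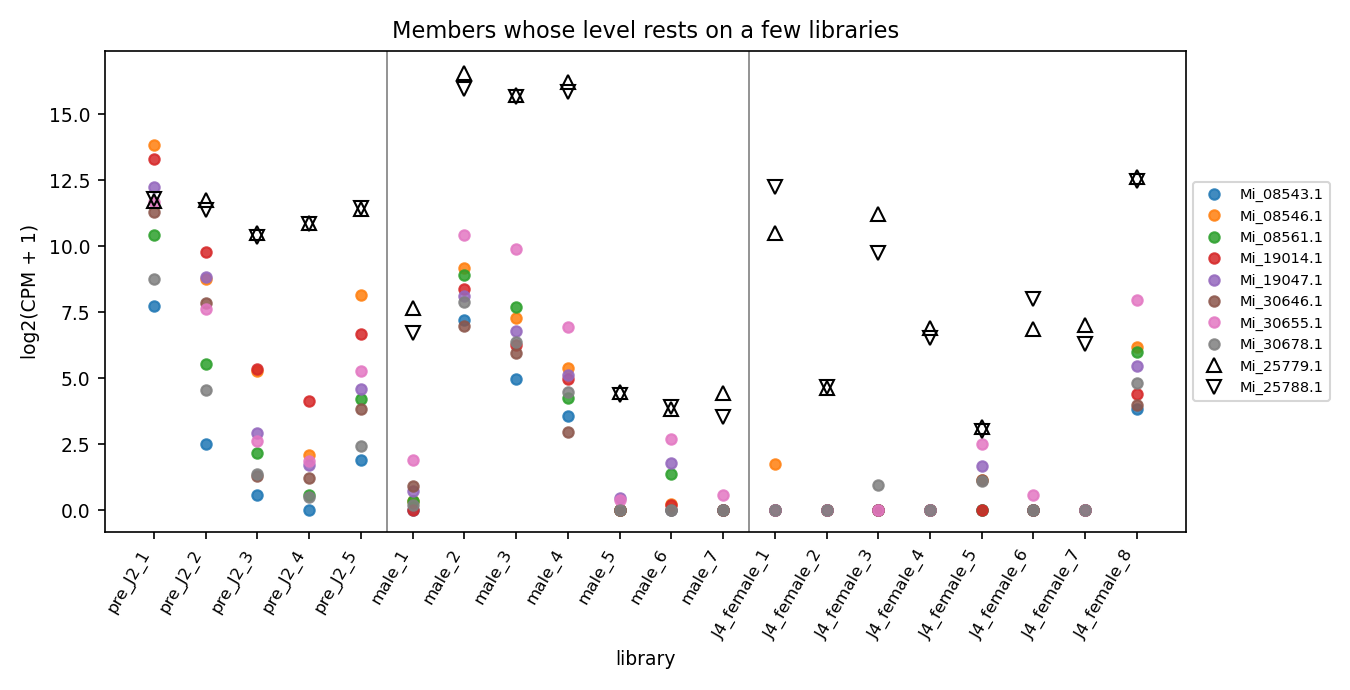
log2(CPM + 1) of the 8 members led by pre_J2 replicate 1 (filled circles) and of Mi_25779.1 and Mi_25788.1 (open triangles) in each pre_J2, male and J4_female library, 1 point per transcript and library. The 8 members peak in pre_J2 replicate 1, and all 10 transcripts are high in male replicates 2, 3 and 4 and in J4_female replicate 8.

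Without male replicates 2, 3 and 4, an alternative chosen after seeing the data, 106 of the 120 members kept a positive score and 103 kept 10 CPM in both stages. The 14 that lost it were Mi_25779.1, Mi_25788.1, Mi_27800.1, Mi_12990.1, Mi_19642.1, Mi_05573.1, Mi_03776.1 and 7 of the 8 members led by pre_J2 replicate 1, Mi_30655.1 being the exception. All 120 kept a positive score without pre_J2 replicate 1, and likewise without J4_female replicate 8. In J4_female replicate 8, 32 members had their highest value among the 63 other libraries. J4 replicate 5, the library with the fewest counts, held that value for 14 members and J4_moulting replicate 10 for 10. What sets these libraries apart was not tested.

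Several members carry neighbouring identifiers. Within 50 identifier numbers of each other, a distance chosen after seeing the data, 35 members formed 15 runs, 5 of them with 3 members. The highest number in use is 44267. How many genes of a random set of 120 would lie so close was not counted, so these runs are a description. One run holds Mi_05737.1, Mi_05740.1 and Mi_05753.1, and all 8 members led by pre_J2 replicate 1 fall in 3 runs. Mi_25779.1 and Mi_25788.1 form another, as do Mi_38482.1, Mi_38518.1 and Mi_38519.1. The files do not state that the numbers follow the genome, and how reads of near-identical gene copies were counted is not stated, so members of a run cannot be taken as independent.

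The last members inside the limit of 120 were Mi_38756.1, Mi_04149.1 and Mi_16234.1, with scores of 1.24, 1.23 and 1.23. The next outside were Mi_08579.1, Mi_43122.1 and Mi_22442.1, with scores of 1.23, 1.23 and 1.22. The limit therefore fell within a continuous run of scores. The same score was also computed for all 28 pairs of stages. By genes at 1 or more, pre_J2 and male ranked behind J4_moulting and male, with 169 genes against 271, and ahead of pre_J2 and J4 with 149. By genes with any positive score the pair ranked only at 13, with 517 genes or 8.17% of those at 10 CPM in both. It held the highest score of any pair, that of Mi_05737.1.

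The comparison of male with pre_J2 asked how far the shared members differ between these stages. Taking the lower of both levels favours members with a small difference, so the counts below were not free of the choice. By mean CPM, 73 members were within 2-fold, 62 were higher in male and 58 higher in pre_J2. A transcript was called where edgeR's quasi-likelihood test gave a Benjamini-Hochberg adjusted p under 0.05 over all transcripts tested and a log2 fold change of at least 1 in size. Of the 120 members, all of them tested, 3 were called higher in male and 6 lower, or 2.5% and 5%. Over all 25331 transcripts tested, 9.34% were called higher in male and 6.95% lower. The median log2 fold change was -0.21 over the members and 0.30 over all transcripts tested. The balance of the members called changed with the method: a joint fit of the 75 libraries called 7 higher and 2 lower (20.1% and 16.2% of all transcripts), with a member median of 0.14, and limma voom with sample weights called 0 higher and 12 lower (15.4% and 12.1% of all transcripts).

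Mi_10045.1 differed most clearly. It had 3519, 3161, 2467, 2866 and 4149 CPM in pre_J2 replicates 1 to 5 and 3.83, 3.82, 4.46, 59.7, 20.4, 8.94 and 12.9 CPM in male replicates 1 to 7. Its log2 fold change, male over pre_J2, was -7.98 (SE 0.95, adjusted p = 0.000128). Among the male libraries only replicates 4, 5 and 7 exceeded 10 CPM, and its means in the 6 other stages were 0.77 to 4.78 CPM. Its level in male was thus low, and no male library came near the pre_J2 range. The other members called lower with the smallest p were Mi_21600.1 (79.1 ± 57.1 CPM in pre_J2, 10.1 ± 7.08 in male), Mi_16157.1 (70.7 ± 26.9 and 11.3 ± 8.12) and Mi_31767.1 (673 ± 446 and 148 ± 152). Their log2 fold changes were -3.46 (SE 0.60, adjusted p = 0.00211), -2.80 (SE 0.68, adjusted p = 0.0149) and -2.70 (SE 0.74, adjusted p = 0.0252). The groups did not overlap for Mi_21600.1 and Mi_16157.1, while for Mi_31767.1 male replicates 5 and 7 reached the lower pre_J2 values. Mi_30066.1 and Mi_10664.1, the remaining members called lower, had log2 fold changes of -2.23 and -1.41.

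The 3 members called higher in male were Mi_05740.1, Mi_00172.1 and Mi_03906.1, and none of them was called by limma voom with sample weights. Mi_05740.1 had 49.3, 22.3, 6.77, 6.20 and 16.8 CPM in pre_J2 replicates 1 to 5 and 287, 1592, 1574, 106, 168, 786 and 201 CPM in male replicates 1 to 7. Every male library exceeded every pre_J2 library, and the log2 fold change was 4.99 (SE 1.07, adjusted p = 0.00735). Mi_00172.1 had 13.1 to 37.3 CPM in pre_J2 with a median of 13.9, and 36.3 to 2001 CPM in male with a median of 413. The lowest male library, replicate 7, fell just below the highest pre_J2 library, and the log2 fold change was 5.25 (SE 1.198, adjusted p = 0.0105). Mi_03906.1 rose without overlap from 278 ± 93.7 CPM in pre_J2 (SD, n = 5) to 1314 ± 464 CPM in male (SD, n = 7), a log2 fold change of 1.88 (SE 0.51, adjusted p = 0.0234).

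Large differences of the means alone did not give a call. Mi_25779.1 and Mi_25788.1 were 12.7-fold and 10.3-fold higher in male by mean CPM and were not called. By mean CPM 14 members were more than 4-fold higher in male and 9 more than 4-fold higher in pre_J2. Without male replicates 2, 3 and 4, 31 of 119 members tested were called, 4 higher (3.36%) and 27 lower (22.7%), beside 6.67% and 6.68% of all transcripts tested in that fit, and the median over the members moved to -0.82. Mi_31767.1 was then no longer called, with a log2 fold change of -2.17 (adjusted p = 0.0961), and it was also lost without pre_J2 replicate 1, while Mi_03906.1 was lost without pre_J2 replicate 2, 3 or 4. With library totals alone in place of TMM factors the median of all transcripts was 0.70, a shift of 0.40. In that fit 4 members were called higher and 4 lower (3.33% each), beside 11.2% and 5.37% of all transcripts. Relative to all transcripts the median member was at -0.52 with TMM and -0.65 with totals, while the share of all calls that were higher in male moved from 57.3% to 67.6%.

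**Figure D4:**
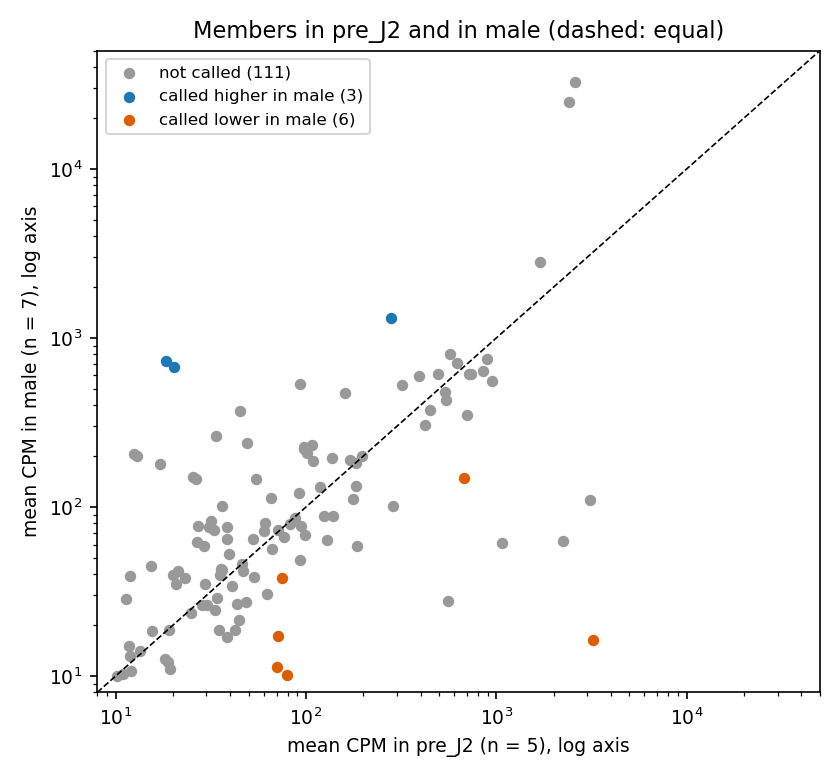
Mean CPM of each of the 120 members in pre_J2 (n = 5, horizontal, log axis) and in male (n = 7, vertical, log axis), 1 point per member, with the dashed line at equal levels. Most points lie near the line, 3 members called higher in male stand above it and 6 called lower stand below it, and Mi_25779.1 and Mi_25788.1 are the uncalled points at the top.

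The 5 comparisons between successive stages among the 6 others asked how the members changed where neither pre_J2 nor male enters. The levels of these stages entered the choice too, through the highest of their means, so these comparisons are not free of it. J4, J4_moulting and J4_female each enter a pair of these comparisons, so neighbouring comparisons share libraries and are not independent. Members passed the filter on low counts only where the stages compared had enough counts, so each count below covers the members tested and not all 120.

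From J4 to J4_moulting a larger share of the members than of all transcripts was called higher. Of 108 members tested, 20 were called higher in J4_moulting (18.5%) and 1 lower (0.926%), while over all 32417 transcripts tested 5.09% were called higher and 3.41% lower. The median log2 fold change was 0.80 over the members and -0.04 over all transcripts, and 71.3% of the members were above 0. With DESeq2's size factors the median of all transcripts shifted by -0.14, and the members stood 0.75 above it, compared with 0.84 under TMM. The members were chosen by a highest other stage mean below those of pre_J2 and male. Whether their difference from other transcripts goes beyond this choice was not tested.

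The smallest p belonged to Mi_44060.1, which ran from 7.60 to 82.5 CPM in J4 (n = 8) and from 116 to 281 CPM in J4_moulting (n = 14). Its means were 40.1 ± 28.2 and 171 ± 44.4 CPM (SD), the groups did not overlap, and the log2 fold change was 2.25 (SE 0.39, adjusted p = 0.00081). Mi_44060.1 also ran from 376 to 756 CPM in pre_J2 and from 213 to 1537 CPM in male. Mi_06764.1 went from 38.6 ± 32.1 CPM in J4 to 186 ± 62.7 CPM in J4_moulting, with a log2 fold change of 2.43 (SE 0.43, adjusted p = 0.0010) and an overlap in which the lowest moulting library, at 94.9 CPM, fell under the highest J4 library, at 103 CPM. The 20 members called higher had log2 fold changes from 1.08 to 3.74 with a median of 1.74, and Mi_44060.1 was the 1 whose groups did not overlap. How many of all transcripts had groups without overlap was not counted. Of the 20, 9 (45%) are also among the 32 of 120 members for which all 12 pre_J2 and male libraries exceeded the highest other stage mean. This is 28.1% of those 32, where 18.5% of the 108 members tested were called higher. The 32 were set apart by levels that entered the choice of members, so this overlap is a description.

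The call lower in J4_moulting, that of Mi_34920.1, rested on 1 animal. Its log2 fold change was -6.06 (SE 1.24, adjusted p = 0.00308), but J4 replicate 2 had 224 CPM where the J4 mean was 29.4 ± 78.6 CPM (SD, n = 8). Without that library the log2 fold change was -1.39 (adjusted p = 0.415). In that fit 19 of 110 members tested were called higher (17.3%) and 0 lower, beside 4.604% and 3.688% of all transcripts.

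**Figure D5:**
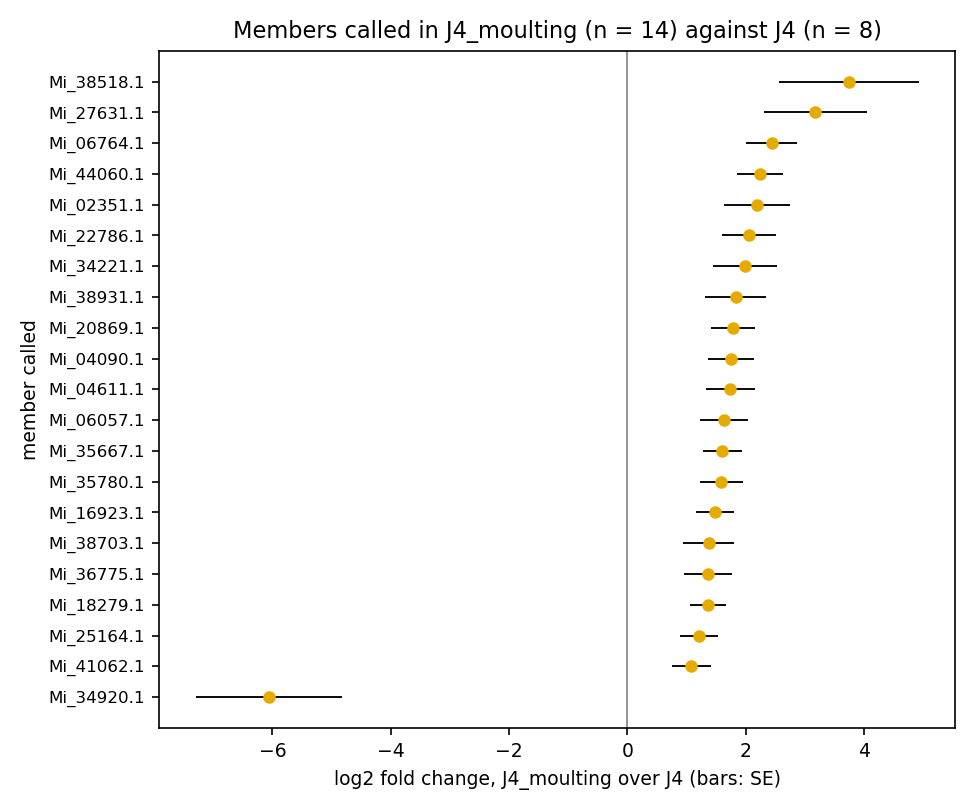
log2 fold change, J4_moulting (n = 14) over J4 (n = 8), of the 21 members called. Bars give 1 SE, the size of the fold change divided by the square root of the test's F value. The 20 members above 0 run from 1.08 to 3.74, and Mi_34920.1, at -6.06, rests on J4 replicate 2.

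In J4_female against J4_moulting the balance of the members called depended on the fit. Of 109 members tested, 4 were called higher in J4_female (3.67%) and 8 lower (7.34%), beside 2.46% and 3.41% of the 32251 transcripts tested. A joint fit of the 75 libraries called 9 members higher and 9 lower (3.85% and 2.90% of all transcripts). The medians were -0.49 over the members and -0.03 over all transcripts. Mi_16923.1 fell from 174 ± 44.1 CPM in J4_moulting (SD, n = 14) to 55.0 ± 29.8 CPM in J4_female (SD, n = 8), a log2 fold change of -1.73 (SE 0.32, adjusted p = 0.00151). Mi_22786.1 fell from 291 ± 174 to 71.9 ± 52.2 CPM, a log2 fold change of -2.15 (SE 0.45, adjusted p = 0.00452). The 8 members called lower had log2 fold changes between -2.15 and -1.22.

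The calls in the upward direction again rested on few animals. Mi_34920.1 had 0.553 ± 0.502 CPM in J4_moulting (SD, n = 14) and 108 ± 189 CPM in J4_female (SD, n = 8), where replicates 1, 6 and 8 had 538, 182 and 138 CPM. Its log2 fold change was 7.49 (SE 1.48, adjusted p = 0.00281), and 6.10 without replicate 1. Mi_27800.1, at 6.69 (SE 1.55, adjusted p = 0.0098), and Mi_30655.1, at 5.64 (SE 1.46, adjusted p = 0.0212), owed their calls to J4_female replicate 8. Without that library their log2 fold changes were 0.40 and 0.06 with adjusted p of 0.973 and 0.997. Mi_30066.1 lost its call without J4_female replicate 1, with an adjusted p of 0.123. Without replicate 8, 2 members were called higher (1.83%) and 16 lower (14.7%), beside 2.18% and 3.16% of all transcripts tested in that fit.

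From par_J2 to J3, 2 of 85 members tested were called. Mi_25779.1 was higher in J3, at 252 ± 437 CPM (SD, n = 14) beside 33.7 ± 45.7 CPM in par_J2 (SD, n = 12), a log2 fold change of 3.05 (SE 0.73, adjusted p = 0.0146). Mi_35830.1 was lower, at 3.38 ± 1.55 beside 12.99 ± 11.8 CPM, a log2 fold change of -1.88 (SE 0.53, adjusted p = 0.0356). Both stages overlapped for both transcripts, and Mi_25779.1 ran from 30.6 to 1637 CPM in J3. Neither transcript was called with the replicate number as a block, and Mi_25779.1 was also not called in a joint fit of the 75 libraries. With 1.18% of the members in each direction, beside 1.08% of the 25685 transcripts tested called higher and 2.87% lower, the members stood near the background. With DESeq2's size factors the median of all transcripts shifted by 0.11, and Mi_35830.1 was no longer called. This left 1 member higher and 0 lower, beside 1.16% and 2.01% of all transcripts.

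From J3 to J4, 0 of 98 members tested were called by edgeR, where 0.00651% of the 30708 transcripts tested were called higher and 0% lower. At an unadjusted p under 0.05 there were 21 members (21.4%), beside 14.8% of all transcripts, and DESeq2 called 1 member higher and 1 lower, beside 3.08% and 0.602% of all transcripts. From J4_female to female, 0 of 82 members tested were called higher and 4 lower (4.88%), beside 3.65% and 0.734% of the 26006 transcripts tested. Mi_25788.1 ran from 7.08 to 5643 CPM in J4_female (n = 8) and from 1.33 to 46.8 CPM in female (n = 7), a log2 fold change of -6.52 (SE 1.51, adjusted p = 0.0169). Mi_35780.1 fell from 49.8 ± 43.7 to 5.05 ± 3.88 CPM, a log2 fold change of -2.43 (SE 0.57, adjusted p = 0.0192), and Mi_04090.1 and Mi_25779.1 were the others called lower. Without J4_female replicate 8, 2 members were called higher and 4 lower (5.33%), beside 3.64% and 2.05% of all transcripts. Without J4_female replicate 1, 0 were called higher and 7 lower (9.21%), beside 3.16% and 1.83% of all transcripts.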

How the data were processed

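The authors deposited whole-number counts per transcript for 75 single-animal libraries, not normalized, in a full table, used here, and in a filtered table with the same values. HISAT2 2.2.1 and StringTie 2.2.1 are named per the submitters' processing notes. The genome build, the annotation, the strand setting and the counting of near-identical copies were not given in the sources used here, and whether the counts are rounded coverage estimates cannot be seen from the values. Library titles gave the stages, and 0 columns were unmapped. The members and comparisons were chosen with earlier results of these data known. Levels were expressed as CPM relative to each library total and averaged per stage with the SD. The stages of each comparison were fitted with edgeR 4.0.16 in R 4.3.3 (filterByExpr, TMM, robust quasi-likelihood test), with the first named stage in the numerator and calls as defined in the text. The SE printed with a log2 fold change is its size divided by the square root of the F value of that test, and was not estimated separately. The pipeline was tested on simulated data. Tables and figures used Python 3.11.15 with numpy 2.4.6, pandas 2.3.3 and matplotlib 3.10.9.

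Transcripts are named by a rule: the 8 highest scores, the 4 highest levels in the lower of both stages, 3 on each side of the limit, up to 4 called members per direction in male against pre_J2 and up to 2 in the other comparisons, the 3 highest in any other stage, and the 3 counted in the fewest and in the most other libraries. Other names were picked after their values were seen. The alternatives comprised DESeq2 1.42.0, its size factors within edgeR, limma 3.58.1 with voom and sample weights, a joint fit of the 75 libraries, no filter on low counts, a replicate block, library totals alone, no fold threshold, other settings of the score and pre_J2 and male libraries left out in turn. Libraries that stood apart were left out as alternatives added after seeing the data. The labels give no sequencing batch, and stage and batch cannot be told apart where they coincide. The J4 replicates 7 and 8 stand between J3 columns in the table and kept their title's stage. Libraries of the same stage were compared in 356 pairs, and the smallest chi-square per degree of freedom was 45.9, so 0 pairs were treated as duplicates.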

Additional observations from a re-analysis of the deposited data

Results flagged for a closer look

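Within stages of 4 to 10 libraries, 76 sets of values were searched for a library far from the rest by Dixon's criterion. Of these sets, 11 (14.5%) held one. The criterion's rate of about 1 in 20 by chance holds for normally distributed values. The levels searched also entered the choice and naming of members, so the 14.5% is a description and is not compared with that rate. Many sets share the same libraries and are not independent. For the share of counts in the 120 members, pre_J2 replicate 1 stood far above its group at 6.836%, and J4_female replicate 8 stood far above its group at 1.987%. Replicate 1 of pre_J2 was also far above the other pre_J2 libraries for Mi_30655.1 (3274 CPM), Mi_00172.1 (37.33 CPM), Mi_34920.1 (512.1 CPM), Mi_17864.1 (132.7 CPM), Mi_08543.1 (210.3 CPM) and Mi_16157.1 (118.7 CPM). In male, replicate 2 was far above the rest for Mi_08543.1 (146.2 CPM). Replicate 4 was far above the rest for Mi_10045.1 (59.66 CPM) and for Mi_16234.1 (281.2 CPM). What sets these libraries apart was not tested.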

How the results depend on the processing

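Of 80 counts recomputed under an alternative, 63 stayed within 1.5 times of the value reported, and of 229 single fold changes 200 were called in the same direction, 28 kept the direction without a call and 1 turned. DESeq2 called 15 members instead of 9 in male against pre_J2, 6 instead of 2 in J3 against par_J2, 2 instead of 0 in J4 against J3 and 13 instead of 4 in female against J4_female. Over all transcripts DESeq2 also called more, 29.6% instead of 16.3%, 7.17% instead of 3.95%, 3.68% instead of 0.00651% and 10.8% instead of 4.39%. Without the low-count filter, where all 120 members were tested, J3 against par_J2 had 11 calls and female against J4_female 2. Over all transcripts that setting called 14.1% and 2.03%. A fit of all 75 libraries, again with 120 members tested, gave 8 and 14 there, beside 10.4% and 3.25% of all transcripts. DESeq2's size factors gave 1 in J3 against par_J2, beside 3.17% of all transcripts. Among the alternatives added after seeing the data, male replicates 2, 3 and 4 were left out together. This gave 31 calls in male against pre_J2, beside 13.4% of all transcripts, and let the rule find 76 members again. Female against J4_female had 6 calls without J4_female replicate 8 and 7 without replicate 1, beside 5.69% and 4.99% of all transcripts. With pre_J2 and male libraries left out in turn, 6 to 10 members were called in male against pre_J2, beside 11.9% to 16.7% of all transcripts. The rule then found 100 to 111 members again. It found fewer, 80, with stage medians of the log values in place of means, and 95 with a minimum of 20 CPM. The other planned settings of the score gave 104 to 108. The cause of these changes was not tested.

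Replicate numbers did not pair the samples: in 0 of the 6 comparisons did every same-numbered pair of libraries correlate above 0.1. Such pairs numbered 0 of 5 in male against pre_J2, 2 of 12 in J3 against par_J2, 2 of 8 in J4 against J3, 1 of 8 in J4_moulting against J4, 3 of 8 in J4_female against J4_moulting and 2 of 7 in female against J4_female, with a highest correlation of 0.249. With the replicate number as a block, calls numbered 2 in male against pre_J2, 0 in J3 against par_J2, 7 in J4_moulting against J4, 4 in J4_female against J4_moulting and 1 in female against J4_female. Calls over all transcripts fell as well, in the same order to 4.48%, 0.721%, 2.40%, 2.48% and 3.48%. Without the block they were 16.3%, 3.95%, 8.50%, 5.87% and 4.39%. In female against J4_female the block gave 1 member higher and 0 lower, beside 3.01% and 0.469% of all transcripts. The fit without it had called 0 members higher and 4 lower. Under the block, Mi_34920.1 turned to -0.29 in J4_female against J4_moulting, where it was called higher without it. The shallowest library, with 3265447 counts, limits what can be seen of members at low levels in J4.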
